A study of Mus musculus with 8 samples.

Results

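The genes described here are 9 transcription factor genes that pattern the early forebrain, Six3, Otx2, Otx1, Emx1, Emx2, Lhx2, Pax6, Gsx2 and Nkx2-1, all of which encode homeodomain proteins and none a forkhead protein. They were followed in neurospheres, free-floating clusters that neural stem cells and their progeny form in culture, grown from the forebrains of mice without the forkhead factor FoxO3. The platform annotation gives them 16 of the 45037 probe sets tested, and no probe set names a member together with another gene. The genes were chosen by their known roles with earlier results of these arrays in view, and the measured values used were the differences between genotypes and between sets. These differences are therefore given as a description, without a test of their own. The data hold 8 Affymetrix Mouse430_2 arrays, 4 of FoxO3 null and 4 of wild type secondary neurospheres, all from FVB/N mice and collected 6 days after seeding. All cultures had 20 ng/ml bFGF and 20 ng/ml EGF, growth factors that keep neural progenitors dividing. In set 2 as in set 1, FoxO3 null and wild type have 2 arrays each. Not given in the labels are the age of the mice, the cells or part of the gene in which FoxO3 was lost, what a set is, and whether arrays of a set came from separate animals or cultures. Foxo3 itself, the targeted gene (chromosome 10), had log2 levels of 8.86 to 9.14 in FoxO3 null against 10.00 to 10.32 in wild type arrays in probe set 1434831_a_at. In 1434832_at it had 7.96 to 8.62 in FoxO3 null against 9.22 to 9.40 in wild type arrays, and in the dim 1450236_at 5.4901 to 5.63 in FoxO3 null against 5.06 to 5.4882 in wild type arrays. The first 2 probe sets were thus lower without overlap. The last was higher without overlap, by 0.33 ± 0.08 (SE), and was not called, and the deleted part of Foxo3 is not given. With so few arrays precision is limited, and p-values reflect only how far these arrays scatter, which may be a technical spread.

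In the embryo, the front end of the neural tube is divided into regions by homeodomain factors that bind DNA and keep each region's fate apart from its neighbours'. Six3 and the Otx factors act in the most anterior neural tissue. Emx1, Emx2, Lhx2 and Pax6 act in the pallium, the dorsal telencephalon that forms the cortex and hippocampus, while Gsx2 and Nkx2-1 act in the ventral telencephalon, the subpallium. Adult neural stem cells of the lateral ventricle wall retain part of this regional code. The levels of these genes are therefore described here as a possible reading of where cultured cells came from. Whether these spheres kept that code in culture was not tested.

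Six3 and Otx2 were the 2 members with the largest differences between genotypes, and sequence before a transcript start of each is shown for that reason. RefSeq windows (GRCm38.p6) of 250 bases before a transcript start were found for 8 of the 9 genes, 13 windows in all. Each was searched on both strands for GTAAACA, a FoxO recognition motif, for TAATCC, bound by Otx type homeodomains, and for TAATTA, a core shared by many homeodomain proteins. The last of these reads the same on both strands, and none of the matches found in members overlap. The FoxO motif was in 0 of the 13 windows and in 3.17% of the 32851 windows of the table. TAATCC was in 1 member window (6.25% of all windows), and TAATTA in 2 (4.84%), all of them of Otx2. The plus strand window of Six3 lies at chr17:85620584-85620833, and the minus strand window of Otx2 that held the most matches, 1 of 4 annotated starts, lies at chr14:48665110-48665359. Each of these windows lies inside the annotated span of its gene, and for Six3 no sequence before that span was searched. Both are written 5′ to 3′ along their gene, and capitals mark matches, GGATTA being TAATCC on the other strand.
Six3: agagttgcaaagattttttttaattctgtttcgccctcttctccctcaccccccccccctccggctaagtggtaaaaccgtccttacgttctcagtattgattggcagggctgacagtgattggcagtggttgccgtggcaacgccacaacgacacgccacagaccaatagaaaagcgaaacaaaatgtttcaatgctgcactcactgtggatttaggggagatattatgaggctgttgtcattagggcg
Otx2: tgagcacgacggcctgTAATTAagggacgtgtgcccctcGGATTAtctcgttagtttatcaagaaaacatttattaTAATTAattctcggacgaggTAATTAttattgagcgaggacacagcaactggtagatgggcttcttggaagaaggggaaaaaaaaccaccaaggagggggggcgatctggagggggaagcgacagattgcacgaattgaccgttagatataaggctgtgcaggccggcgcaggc
A match is only a description of these letters, and its absence says nothing about binding elsewhere in the gene.

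Six3, on chromosome 17 from 85613608 to 85626191 (GRCm38.p6), encodes a factor needed to form the anterior forebrain and the eye. Its brightest probe set, 1427523_at, read 7.28 and 7.11 in set 2 and 7.27 and 7.23 in set 1 in FoxO3 null arrays, against 7.96 and 8.02 in set 2 and 8.52 and 8.17 in set 1 in wild type arrays. All values are log2 expression as deposited. All 4 FoxO3 null arrays thus lay under the lowest wild type array, and the FoxO3 null arrays lay closer together, at 7.22 ± 0.08, than the wild type arrays, at 8.17 ± 0.25 (SD, n = 4 each). The fitted log2 difference, FoxO3 null minus wild type with set as a term, was -0.95 ± 0.09 (SE), which is 51.9% of the wild type signal. In RNA of whole spheres, fewer cells that express a gene and less RNA per cell cannot be told apart.

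The other 2 probe sets of Six3 did not show this difference. Probe set 1426638_at averaged 5.55 ± 0.13 in FoxO3 null and 5.49 ± 0.06 in wild type arrays, and 1426637_a_at averaged 4.86 ± 0.18 in FoxO3 null and 4.95 ± 0.18 in wild type arrays (log2, SD, n = 4 each). Their fitted log2 differences were 0.06 ± 0.06 and -0.09 ± 0.09 (SE), and the genotypes overlapped in both. They are dim: 35.3% and 18.5% of all probe sets had a lower mean over the 8 arrays, against 66.7% for 1427523_at, and RMA compresses the differences of dim probe sets. The annotation pairs the dim probe sets with another sequence record than the brighter one, and the difference of Six3 rests on 1 of 3 probe sets.

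Otx2, on chromosome 14 from 48656781 to 48667644, encodes a factor that sets up the forebrain and midbrain and later acts in the choroid plexus and retina. Its single probe set, 1425926_a_at, read 7.35 and 7.65 in set 2 and 6.75 and 6.97 in set 1 in FoxO3 null arrays, against 8.37 and 8.13 in set 2 and 7.98 and 7.95 in set 1 in wild type arrays. The highest FoxO3 null array, at 7.65, lay below the lowest wild type array, at 7.95. The fitted log2 difference was -0.93 ± 0.10 (SE), or 52.5% of the wild type signal. Otx1, a close relative that acts in the growing cortex (chromosome 11, 21994764 to 22001651), had log2 values from 8.003 to 8.06 in FoxO3 null arrays and from 7.85 to 8.04 in wild type arrays. Its log2 difference was 0.05 ± 0.06 (SE) and the genotypes overlapped, so the related genes Otx2 and Otx1 gave unlike values on the same arrays.

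Over the whole table, 361 of 45037 probe sets (0.802%) were called between genotypes at an adjusted p under 0.05, and 264 (0.586%) were called as lower in FoxO3 null arrays. The fit was limma with Benjamini-Hochberg adjustment over all probe sets. Among the 16 probe sets of the members, the 2 just described, 1427523_at of Six3 and that of Otx2, were called, both lower. The same 2 were also the only member probe sets whose genotypes did not overlap, as was the case for 3.11% of all probe sets in either direction. The calls of Six3 and Otx2 helped to choose the members, so nothing is read from these shares. The median log2 difference was 0.03 over the 16 member probe sets and 0.01 over all probe sets, and 9 member probe sets had a positive difference. The 14 that were not called lay between -0.24 and 0.13. Both calls held in each of the 8 fits that leave out 1 array. Without the set term neither was called (log2 differences -0.95 and -0.93). In set 2 alone Six3 was called at -0.79 while Otx2, at -0.75, was not.

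**Figure D1:**
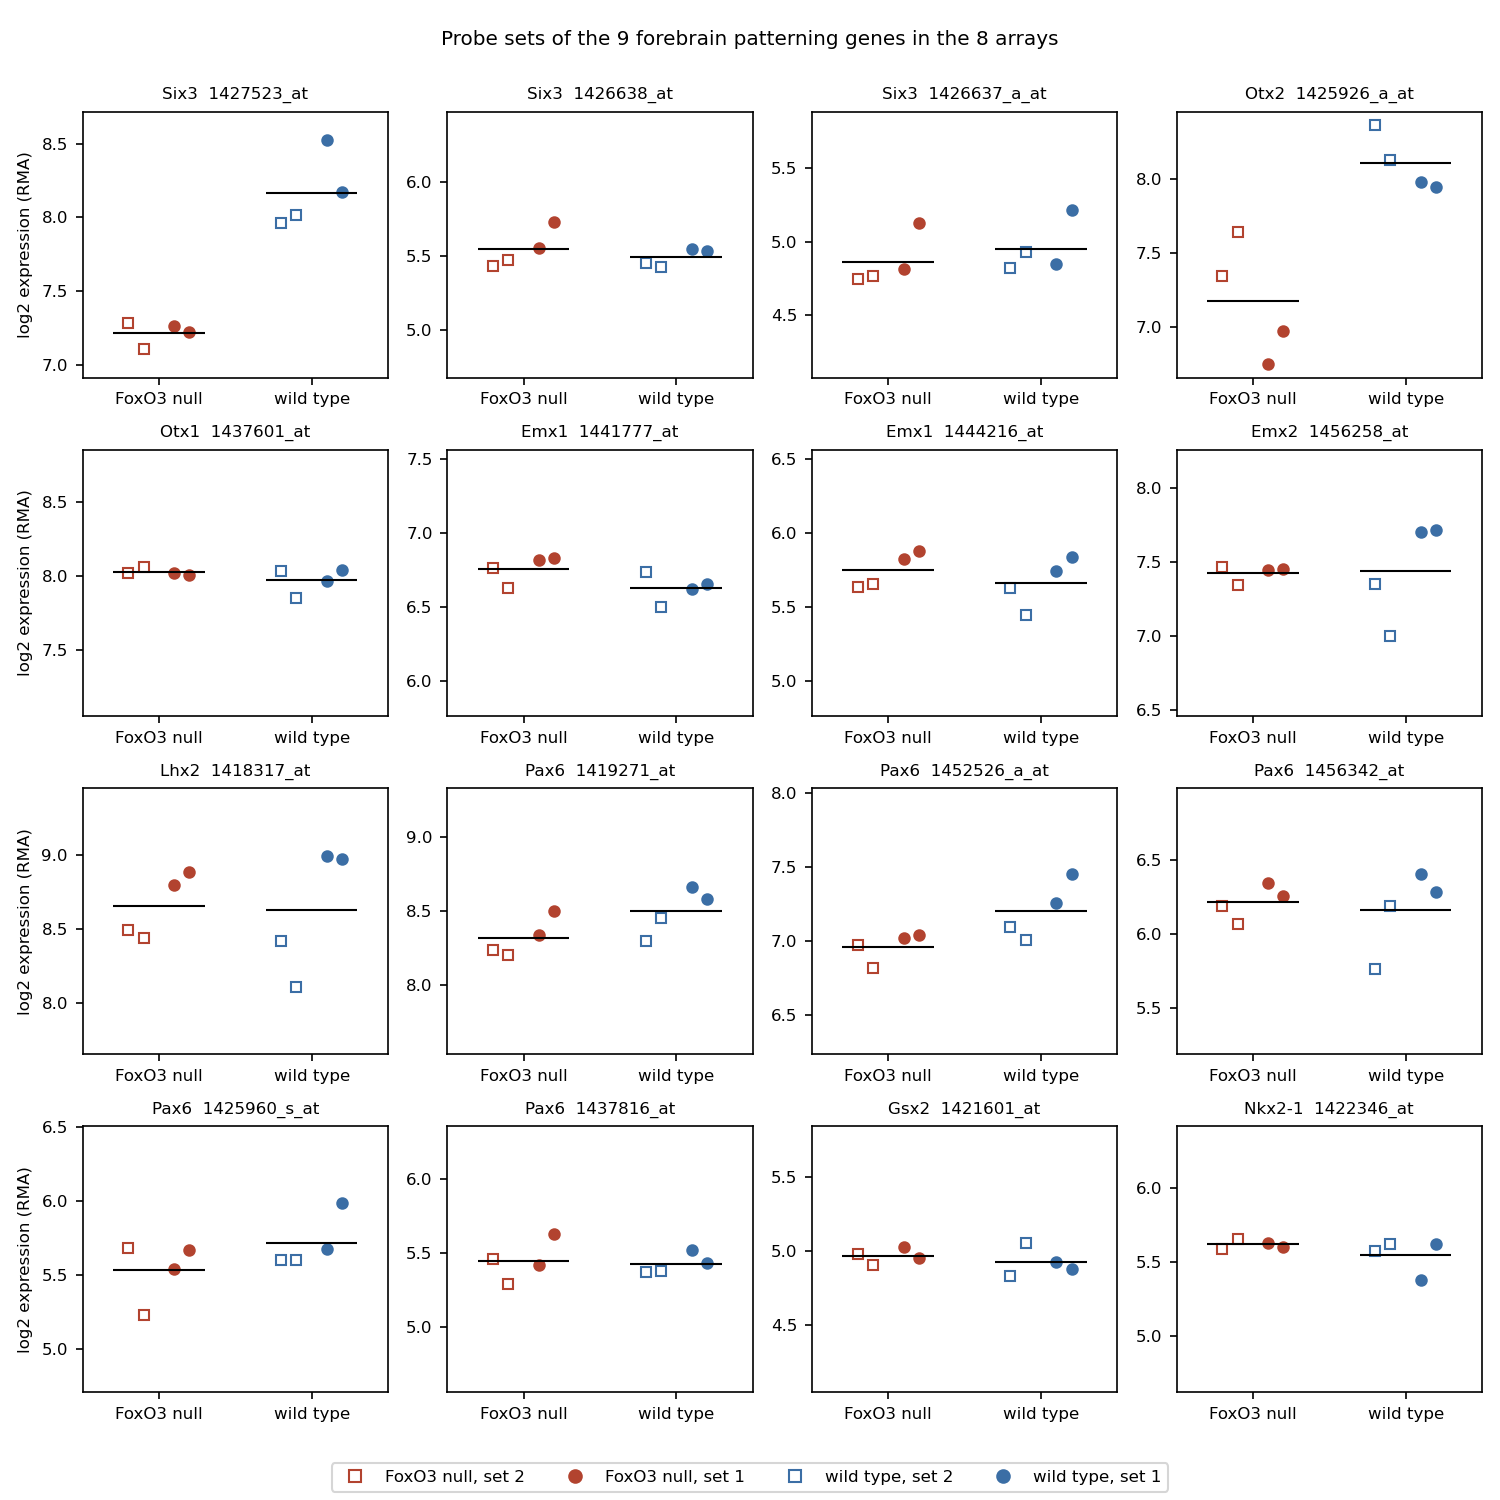
Log2 expression (RMA) of the 16 probe sets in each array, with FoxO3 null arrays left and wild type arrays right in each panel, open squares for set 2, filled circles for set 1 and a bar at the mean of 4 arrays. All panels span 1.8 log2 units around their own middle, and the genotypes are apart in Six3 1427523_at and Otx2 and overlap in the other 14.

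**Figure D2:**
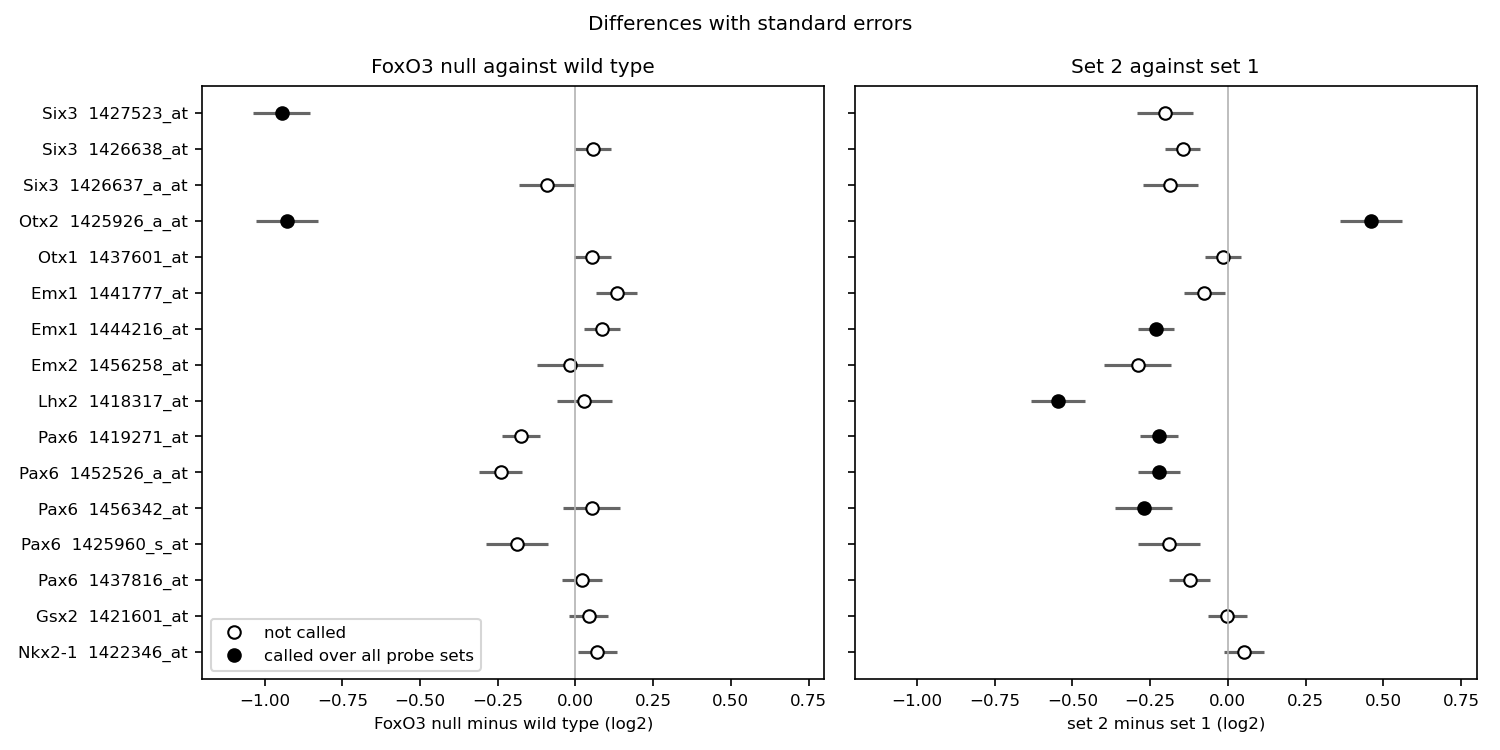
Fitted log2 differences of the 16 probe sets with standard errors, for FoxO3 null minus wild type (left) and set 2 minus set 1 (right), filled where the fit over all probe sets made a call. Genotype differences other than those of Six3 1427523_at and Otx2 lie between -0.24 and 0.13, while 14 of the 16 set differences are negative.

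The dorsal genes had small differences between genotypes. Emx1 (chromosome 6, 85187931 to 85204463), which marks the cortical progenitors and neurons of the pallium, had log2 differences of 0.13 ± 0.07 and 0.08 ± 0.06 (SE) in its 2 probe sets. In the brighter of them, 1441777_at, FoxO3 null arrays ran from 6.63 to 6.83 and wild type arrays from 6.50 to 6.73. Pax6 (chromosome 2, 105668896 to 105698410), a paired and homeodomain factor of cortical progenitors and of the eye, has 5 probe sets, with log2 differences from -0.24 to 0.05. The brightest, 1419271_at, averaged 8.32 ± 0.13 in FoxO3 null and 8.50 ± 0.16 in wild type arrays (SD, n = 4 each), a difference of -0.18 ± 0.06 (SE). The most negative, 1452526_a_at, averaged 6.96 ± 0.10 in FoxO3 null and 7.20 ± 0.20 in wild type arrays, with a highest FoxO3 null array of 7.04 against a lowest wild type array of 7.004. Neither was called, the genotypes overlapped in all 5, and the probe sets of Pax6 did not share a sign.

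Lhx2 and Emx2 had differences near 0 over both sets together and opposite signs within them. Lhx2 (chromosome 2, 38339271 to 38369737), a LIM homeodomain factor that gives the cortex its identity, read 8.50 and 8.44 in FoxO3 null against 8.42 and 8.11 in wild type arrays of set 2. In set 1 it read 8.79 and 8.89 in FoxO3 null against 8.996 and 8.97 in wild type arrays. FoxO3 null arrays were thus the higher ones in set 2 and the lower ones in set 1, without overlap in either. Emx2 (chromosome 19, 59458690 to 59465357), which promotes hippocampal and caudal cortical identity, read 7.47 and 7.34 in FoxO3 null against 7.35 and 6.999 in wild type arrays of set 2. In set 1 it read 7.45 and 7.45 in FoxO3 null against 7.70 and 7.72 in wild type arrays. The genotypes of Emx2 thus overlapped in set 2 and not in set 1. With 2 arrays on each side, values often fall apart by scatter alone. The share of all probe sets apart within a set was not counted, so nothing is read from the lack of overlap in Lhx2 or Emx2. The log2 difference of Lhx2 was 0.20 ± 0.10 in set 2 and -0.14 ± 0.10 in set 1, and that of Emx2 was 0.23 ± 0.11 and -0.26 ± 0.11 (SE). Over both sets they were 0.03 ± 0.09 for Lhx2 and -0.02 ± 0.11 for Emx2. Signs also differed between sets in Pax6 1456342_at (0.15 in set 2 and -0.05 in set 1). The same held for Pax6 1437816_at (-0.0027 and 0.05) and Gsx2 (-0.0025 and 0.09).

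Whether the effect of genotype differed between sets was not used to choose the members, and it was tested with the interaction of genotype and set. None of the 16 member probe sets passed, while 31 of 45037 (0.0688%) passed over the table (limma, Benjamini-Hochberg adjustment). The smallest p was that of Emx2, with an interaction of 0.49 ± 0.15 log2 (SE), an unadjusted p of 0.0103 and an adjusted p of 0.463 in limma. Lhx2 followed with 0.35 ± 0.14 (unadjusted p 0.0382, limma adjusted p 0.631), and these were the 2 member probe sets with an unadjusted p under 0.05. For Otx2 the log2 difference was -0.75 ± 0.12 in set 2 and -1.10 ± 0.12 in set 1 (SE), with an interaction of 0.35 ± 0.17 (limma adjusted p 0.712). For Six3 1427523_at it was -0.79 ± 0.11 in set 2 and -1.10 ± 0.11 in set 1, with an interaction of 0.31 ± 0.16 (limma adjusted p 0.731). A p that misses the threshold does not show that the sets were alike, and 4 arrays per set leave wide errors on such a difference.

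**Figure D3:**
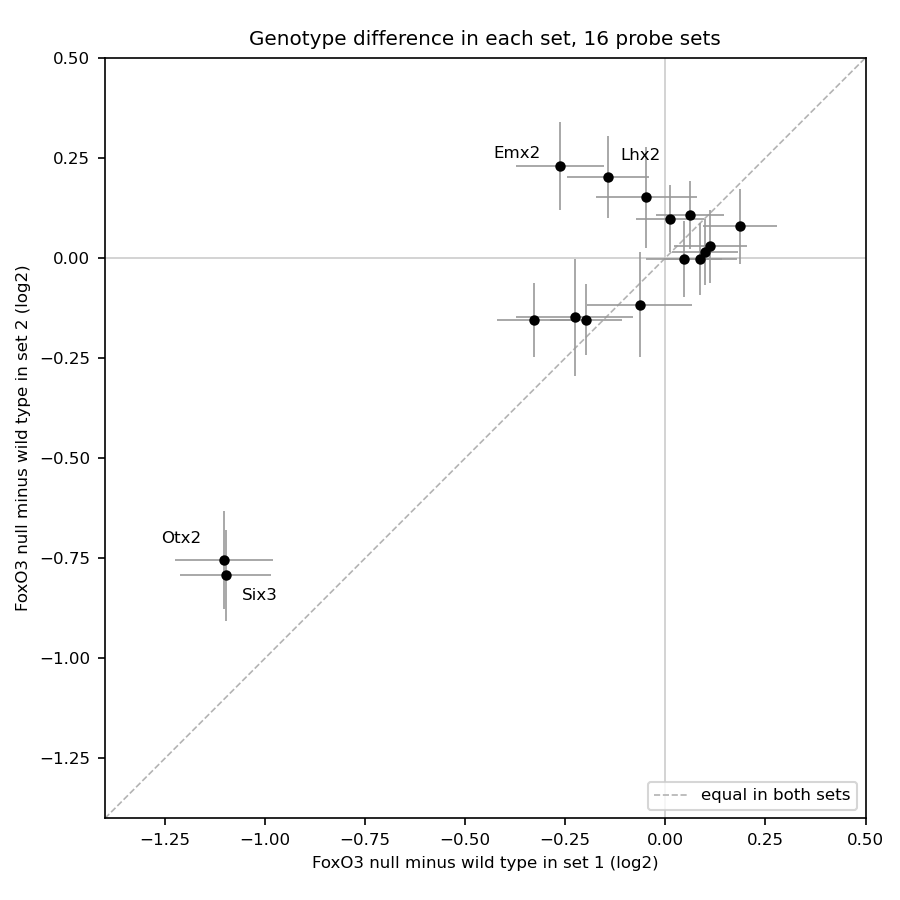
Genotype difference (log2, FoxO3 null minus wild type) in set 1 on the x axis and in set 2 on the y axis for the 16 probe sets, with standard errors and a dashed line of equal values. Six3 1427523_at and Otx2 are negative in both sets, and Lhx2, Emx2 and Pax6 1456342_at are positive in set 2 and negative in set 1.

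The ventral genes were dim and had differences within their spread. Gsx2 (chromosome 5, 75075601 to 75077893), which specifies the lateral ganglionic eminence, ran from 4.90 to 5.03 in FoxO3 null and from 4.83 to 5.06 in wild type arrays, with a log2 difference of 0.04 ± 0.06 (SE). Nkx2-1 (chromosome 12, 56531935 to 56536908), which specifies the medial ganglionic eminence and parts of the hypothalamus, ran from 5.59 to 5.66 in FoxO3 null and from 5.38 to 5.62 in wild type arrays, with a difference of 0.07 ± 0.06. Only 19.6% and 36.7% of all probe sets were dimmer. The deposited values carry no detection call, so whether these 2 genes were expressed at all was not determined.

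Set 2 against set 1 showed a different order of genes. Of the 16 member probe sets, 5 are of Pax6 and 3 of Six3, and set 2 was lower in 14 of the 16. The median log2 difference was -0.19 where the median over all probe sets was -0.01. Set differences had helped to choose the members, so nothing is read from this contrast. The fit called 6 of the 16 member probe sets (37.5%), 5 lower and 1 higher in set 2. Among all 45037 probe sets, 17281 (38.4%) were called between sets, 19.5% higher and 18.9% lower in set 2, so the share called among the members lay near the background. In 4 member probe sets the sets did not overlap at all, and the same held for 35.0% of all probe sets. A sign of RNA quality also separated the sets. For the actin controls, the log2 level at the 3′ end less that at the 5′ end was 0.33 to 0.39 in set 2 and 0.47 to 0.54 in set 1, without overlap, and its part in the set differences was not tested.

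Lhx2 had the largest set difference among the members. It averaged 8.37 ± 0.17 in set 2 and 8.91 ± 0.09 in set 1 (SD, n = 4 each), a log2 difference of -0.55 ± 0.09 (SE), with each set 2 array below each set 1 array. The fall was called in each genotype alone, at -0.37 in FoxO3 null and -0.72 in wild type arrays. Otx2 was the 1 member called as higher in set 2, with 7.87 ± 0.46 in set 2 against 7.41 ± 0.64 in set 1 and a log2 difference of 0.46 ± 0.10. Its set difference was 0.63 in FoxO3 null and 0.29 in wild type arrays, and wild type arrays alone made no call. The brightest Pax6 probe set averaged 8.30 ± 0.11 in set 2 and 8.52 ± 0.14 in set 1, and 3 of the 5 probe sets of Pax6 were called as lower in set 2, with differences of -0.22 to -0.27. Leaving out 1 array ended the call of 1456342_at in 5 of 8 fits, that of 1452526_a_at in 4 and that of 1419271_at in 2. Probe set 1444216_at of Emx1 was called at -0.23 ± 0.06, while 1441777_at of the same gene had -0.08 ± 0.07. Emx2, at -0.29 ± 0.11, was not called between sets. Its set difference was -0.05 in FoxO3 null and -0.54 in wild type arrays, with a call in wild type arrays alone. It ran from -0.36 to -0.17 with 1 array left out, the weakest being without wild type array 2_2, and was called in 3 of those 8 fits, those without FoxO3 null arrays 1_1, 1_2 and 2_1. It was also called with quantile normalization (-0.38), with a variance trend and with 1 probe set per gene. Six3 1427523_at, at -0.20 ± 0.09, was not called either. Its difference was -0.10 without wild type array 1_1, and it was called without FoxO3 null array 2_1 (-0.27) and with quantile normalization (-0.28). Otx1 (-0.02 ± 0.06), Gsx2 (-0.0022 ± 0.06) and Nkx2-1 (0.05 ± 0.06) were not called between sets.

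RNAs transcribed beside the members were looked up after the members' values had been seen. Six3os1, a long noncoding RNA (chromosome 17, 85601932 to 85618396) whose annotated span overlaps that of Six3, read 6.04 and 5.67 in set 2 and 5.31 and 5.72 in set 1 in FoxO3 null arrays. In wild type arrays it read 6.34 and 6.26 in set 2 and 6.54 and 6.53 in set 1. The genotypes did not overlap, and Six3os1 fell by 0.73 ± 0.13 on the log2 scale (SE, limma adjusted p 0.037), or to 60.3% of the wild type signal. The call was lost in 6 of the 8 fits that leave out 1 array (adjusted p from 0.0214 to 0.146 over the 8), the 2 that kept it being those without FoxO3 null arrays 1_1 and 2_1. It was also lost within set 2 alone (-0.44, adjusted p 0.253), within set 1 alone (-1.02, adjusted p 0.074) and with the 2 arrays of each set and genotype averaged (adjusted p 0.151, limma). Otx2os1, annotated next to Otx2 (chromosome 14, 48669288 to 48793348), had a log2 difference of 0.0039 ± 0.08 (SE, limma adjusted p 0.992), and Emx2os, beside Emx2, 0.06 ± 0.07 (adjusted p 0.805).

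**Figure D4:**
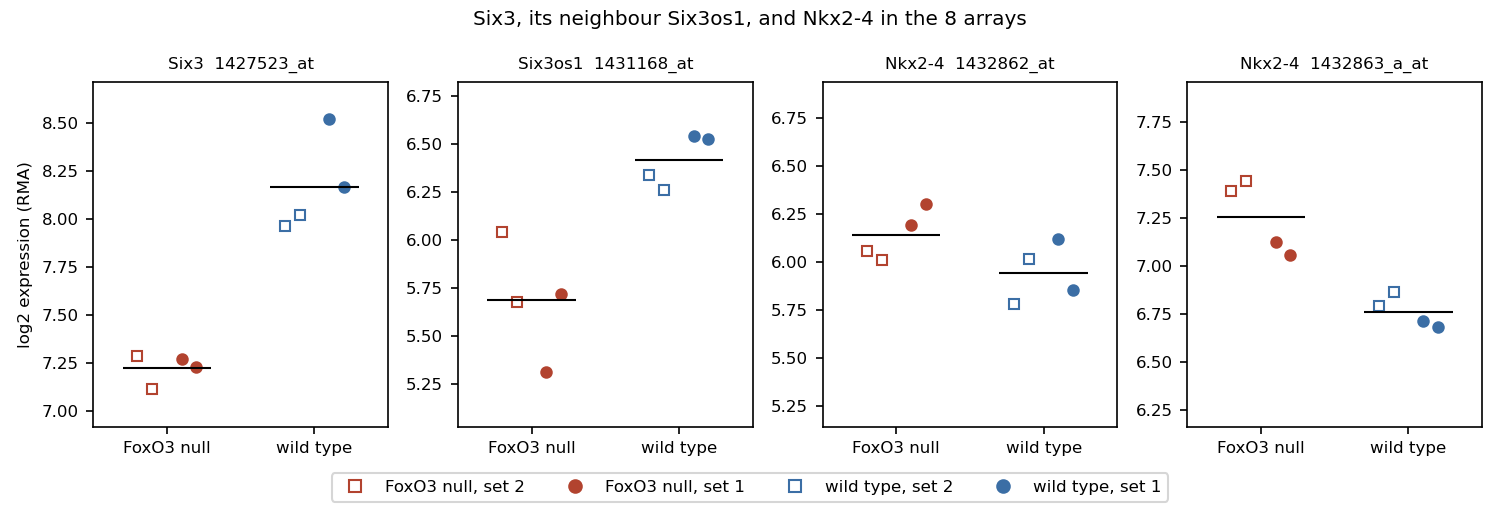
Log2 expression (RMA) by array of Six3 1427523_at, its neighbour Six3os1 and the 2 probe sets of Nkx2-4, FoxO3 null left and wild type right, with a bar at the mean of 4 arrays. FoxO3 null arrays lie below all wild type arrays in Six3 and Six3os1, above all of them in Nkx2-4 1432863_a_at, and overlap with them in 1432862_at.

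Other regional genes were taken from 16 lists of forebrain regions, other brain regions, paralogs and cell types, each gene represented by its brightest probe set. Of 178 different list genes measured, 2 (1.12%) were called between genotypes over all probe sets, the same share as the 203 of 18193 genes (1.12%) in the table. Both rose in FoxO3 null arrays. Nkx2-4 (chromosome 2, 147083337 to 147085439), a paralog of Nkx2-1 that is expressed in the hypothalamus, averaged 7.25 ± 0.19 in FoxO3 null and 6.76 ± 0.08 in wild type arrays (log2, SD, n = 4 each). It rose by 0.49 ± 0.06 (SE, limma adjusted p 0.00631) with each FoxO3 null array above each wild type array. Its dimmer probe set 1432862_at had 0.20 ± 0.08 (limma adjusted p 0.313). The call of Nkx2-4 held without any 1 array, with differences of 0.46 to 0.53. It was lost in set 1 alone (0.39), without the set term (0.49), with averaged arrays (0.49) and with a covariate of Y-linked genes (0.35).

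The regional lists held no further call between genotypes. Among 9 rostral forebrain genes none was called (median log2 difference -0.0042), and the smallest p was that of Sp8, a zinc finger factor of olfactory bulb interneurons, with 0.46 ± 0.14 (SE, limma adjusted p 0.19). None of 16 pallial genes was called (median 0.0030); Eomes, of cortical intermediate progenitors, came nearest with 0.19 ± 0.07 (adjusted p 0.261). None of 14 subpallial genes was called (median -0.04), with Ebf1, a factor of striatal neurons, at 0.37 ± 0.11 (adjusted p 0.177), nor any of 12 cortical hem genes (median 0.0094), with the signal Wnt5a at 0.26 ± 0.08 (adjusted p 0.187). Nkx2-4 was the 1 call among 12 diencephalic genes (median -0.0019) and among 24 paralogs (median 0.0082). The midbrain and hindbrain list had 0 of 11 (median -0.08; En2, of the midbrain and hindbrain boundary, at -0.32 ± 0.09, adjusted p 0.17), and the Hox list 0 of 23 (median -0.02; Hoxb2 at -0.12 ± 0.08, adjusted p 0.601). The median over all genes was 0.0091. Some of these lists were dim. The rostral list averaged 5.23 to 5.32 log2 in FoxO3 null and 5.12 to 5.34 in wild type arrays. For the Hox list the means were 5.60 to 5.82 in FoxO3 null and 5.63 to 5.76 in wild type arrays. Differences of dim probe sets are compressed, so the absence of a call in such lists says little.

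Between sets, 72 of the 178 list genes (40.4%) were called, close to the 41.6% of all 18193 genes. Nkx2-2, a ventral midline factor of the diencephalon and hindbrain, averaged 9.42 ± 0.12 in set 2 and 8.28 ± 0.12 in set 1, a rise of 1.14 ± 0.06 log2 (SE, limma adjusted p 1.08e-06), and Irx3, of the caudal diencephalon, rose by 0.78 ± 0.14 (adjusted p 0.0015). The diencephalic list had 4 genes higher and 0 lower in set 2. En2 rose by 0.90 ± 0.09 (limma adjusted p 5.91e-05) in a midbrain and hindbrain list with 2 higher and 4 lower, among them Egr2, of the hindbrain, at -0.30. Dlx6, a subpallial factor of GABAergic neurons, fell by 0.54 ± 0.05 (limma adjusted p 4.37e-05), and Isl1, of striatal projection neurons, by 0.42 ± 0.07, in a subpallial list with 5 higher and 4 lower. Nr2e1, an orphan receptor of adult neural stem cells, fell by 0.49 ± 0.11 (limma adjusted p 0.00517) and Lhx5 by 0.25, the 2 calls of the rostral list. In the pallial list 3 rose, Dmrta1 most clearly (0.33 ± 0.055, limma adjusted p 0.00111), and 1 fell, Wnt8b, of the hippocampal primordium (-0.39 ± 0.08, adjusted p 0.00283). Dmrta1 was dim, averaging 4.69 log2 in set 2 and 4.36 in set 1, and so was Wnt8b (5.12 and 5.50). Also dim were Dlx6 (5.23 and 5.77), Isl1 (5.02 and 5.44) and Lhx5 (5.00 and 5.25). Whether these dim genes were expressed at all was not determined. Msx1 rose by 0.46 and Wnt3a fell by 0.37 in the hem list, 7 of 23 Hox genes fell and 0 rose (Hoxa7 -0.44 and Hoxa5 -0.32), and among paralogs 4 rose and 8 fell, with Pax9 at -0.38.

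**Figure D5:**
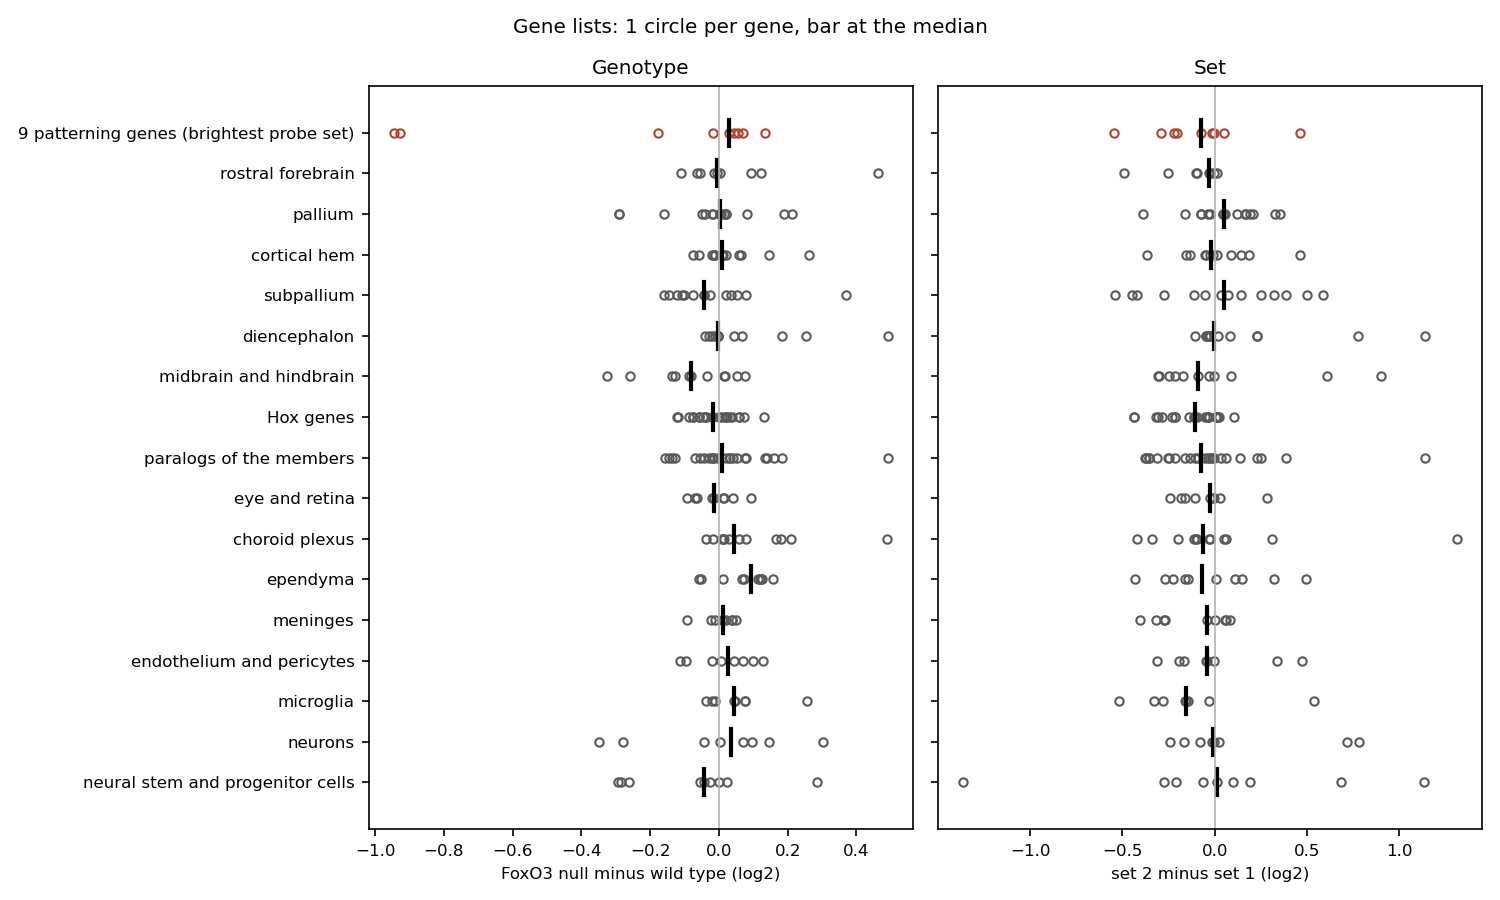
Log2 differences of the 9 members, in red, and of the genes of 16 lists, in grey, for FoxO3 null minus wild type (left) and set 2 minus set 1 (right), 1 circle per gene by its brightest probe set and a black bar at the median. List medians lie between -0.08 and 0.09 for genotype and between -0.16 and 0.05 for set.

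Marker lists of other cells and tissues held few calls between genotypes, and some of these lists were dim. The microglial list averaged 5.19 to 5.38 log2 in FoxO3 null and 5.17 to 5.32 in wild type arrays. For the endothelial and pericyte list the means were 5.63 to 5.74 in FoxO3 null and 5.61 to 5.77 in wild type arrays. The eye and retina list had 5.67 to 5.79 and 5.69 to 5.79. As in the dim regional lists, the absence of a call there says little. Of 12 choroid plexus genes, 1 was called: Sostdc1, a secreted inhibitor of BMP and Wnt signals, rose by 0.49 ± 0.09 (SE, limma adjusted p 0.0314), a call lost in 7 of the 8 fits that leave out 1 array (kept without FoxO3 null array 1_1), with differences of 0.43 to 0.56 over the 8. It was also lost in set 2 alone (0.49, limma adjusted p 0.16), in set 1 alone (0.49, adjusted p 0.297), with averaged arrays (0.49, adjusted p 0.0834), without the set term (0.49) and with the covariate of Y-linked genes (0.56). The other probe set of Sostdc1, 1460250_at, had 0.49 ± 0.14 (SE, limma adjusted p 0.159), with overlapping genotypes. The mean log2 level of the choroid plexus list was 5.728 to 5.77 in FoxO3 null and 5.60 to 5.721 in wild type arrays, with a median difference over its genes of 0.04. None was called among 9 eye and retina, 10 ependymal, 9 meningeal, 8 endothelial and pericyte, 8 microglial, 8 neuronal and 9 neural stem and progenitor genes. The smallest p among these was that of Nes, the intermediate filament of progenitors, at 0.29 ± 0.06 (limma adjusted p 0.0567), and the next was that of the synaptic gene Snap25 at -0.35 ± 0.08 (adjusted p 0.10). The stem and progenitor list averaged 10.79 to 10.83 in FoxO3 null and 10.84 to 10.92 in wild type arrays. The genotypes did not overlap in the mean of the choroid plexus list, which includes Sostdc1, or in that of the stem and progenitor list. The margin was narrow in both, and the means of all other lists of the 16 overlapped between genotypes. The part of these lists in the differences of the members was not tested. Between sets these lists did not move 1 way. The stem and progenitor list had 3 genes called higher and 3 lower in set 2, among them Prom1 (1.13) and the Notch effector Hes5 (-1.36). The ependymal list had 2 higher and 3 lower, among them the ependymal factor Foxj1 (0.49) and Ccdc153 (-0.43). The choroid plexus list had 2 higher and 2 lower, among them Calml4 (1.31) and Ttr (-0.34).

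No member lies on chromosome 10, where Foxo3 is. The mean log2 level of 3 Y-linked genes was 6.88 and 7.10 in FoxO3 null against 7.80 and 7.66 in wild type arrays of set 2, and 7.90 and 8.09 in FoxO3 null against 8.35 and 8.18 in wild type arrays of set 1. Within each set, FoxO3 null arrays were thus lower for the Y-linked genes as for Six3 and Otx2. Over both sets together, the mean of the Y-linked genes overlapped between genotypes. The part of this mean in the differences of Six3 and Otx2 was not tested. With that mean as a covariate Six3 1427523_at had -1.14 and Otx2 -0.95, and 0 of 45037 probe sets were called (8 arrays, limma, with 2890 at an unadjusted p under 0.05). The actin 3′ to 5′ measure of RNA quality was 0.33 to 0.49 in FoxO3 null and 0.36 to 0.54 in wild type arrays. In set 1 it was 0.47 and 0.49 in FoxO3 null against 0.54 and 0.52 in wild type arrays, without overlap. In set 2 it was 0.330 and 0.364 in FoxO3 null against 0.390 and 0.359 in wild type arrays, with overlap. Its part in the genotype differences was not tested.

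For 4 members whose brightest probe set spanned at least 0.5 log2 over the arrays, the 2 genes with the most similar profile were looked up among 5474 genes of the same span. The measure was Pearson's r over the 8 arrays, which share 2 sets and 2 genotypes, so it is a description only. Six3 was most like Rimklb, an amino acid ligase (r = 0.985), and Plppr1, a phospholipid phosphatase relative (r = 0.973). Otx2 was most like Mapt, which encodes the microtubule protein tau (r = 0.979), and Tmem169 (r = 0.969). Lhx2 was most like Rap2c, a small GTPase (r = 0.985), and Pdpk1, the kinase that activates Akt (r = 0.984), and Emx2 most like Gli2, a Hedgehog effector (r = 0.956), and the receptor kinase Mst1r (r = 0.955).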

How the data were processed

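The 8 Mouse430_2 arrays measured total RNA of secondary neurospheres. The deposited values are log2 expression; per the submitters' processing notes, the authors used RMA, in a version not given in the sources used here. RMA subtracts background, makes the arrays' distributions alike and summarises each probe set, so a change is relative to the other genes and is compressed in dim probe sets. The 45101 probe sets less 64 controls left 45037, named with the platform annotation: 34945 had 1 gene symbol, 932 several and 9160 none. A linear model with genotype and set was fitted to the log2 values with limma 3.58.1 in R 4.3.3, and p-values were two-sided, adjusted by Benjamini-Hochberg over all probe sets and called at 0.05. The interaction used 4 groups of set and genotype. The fit was tested on simulated data.

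The members and the 16 lists were chosen with earlier results of these data known. Of 197 different list genes, 178 were measured; the others were not analysed here. Each list gene stands for its brightest probe set by mean. All probe sets of the members and Foxo3 are given. From each list the text could name up to 3 genes called between genotypes by smallest p (the 1 with the smallest p where none was), up to 2 by set, and for each member spanning 0.5 log2 the 2 genes with the highest Pearson's r. Alternatives left out each array, changed the model terms, covariates, normalization, variance prior, threshold or probe sets used.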

Additional observations from a re-analysis of the deposited data

Results flagged for a closer look

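Among the FoxO3 null arrays, Emx2 1456258_at had its lowest value, 7.34 log2, in array 2 of set 2, with the nearest other FoxO3 null array at 7.45. The gap made up 0.84 of the range of the 4 arrays, above Dixon's critical value for a group of this size. Of 32 groups of 4 arrays tested over the member probe sets, 1 was singled out in this way, and chance singles out about 1 in 20 groups.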

How the results depend on the processing

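The 361 probe sets called between genotypes became 83 to 271 when 1 array was left out, 83 without wild type array 1_1 and 85 without wild type array 2_1. It was 146 within set 2 and 42 within set 1, 3 where set was no term of the model, 39 with averaged arrays (4320 at an unadjusted p under 0.05, limma), 61 at an adjusted p under 0.01, 825 with a variance trend and 1354 with set by genotype as a random block. The count was 0 with the Y-linked covariate (2890 at an unadjusted p under 0.05, limma). The replicate block gave 138. Same-numbered arrays correlated at 0.07 in set 1 and -0.06 in set 2 around their group means. These values cannot show whether such arrays share more than a number. The block ended the calls of Six3os1 (-0.73, limma adjusted p 0.0795) and Sostdc1 (0.49, adjusted p 0.0588). It kept those of Six3 1427523_at, Otx2 and Nkx2-4. The 17281 calls between sets were 11287 above the median level, 7963 with 1 probe set per gene, 10379 in wild type arrays alone and 7848 in FoxO3 null arrays alone, and 14134 to 15692 with 1 array left out. The 31 interaction calls were 4 to 29 with 1 array left out and 150 with a variance trend. The cause was not tested, other than the fewer probe sets or arrays entering some fits. Six3 1427523_at stayed negative in all 20 alternatives (-1.14 to -0.79), and Otx2 likewise (-1.10 to -0.75). No called value among the members changed sign. The number of arrays and the signal over background of dim probe sets limit the precision.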
